A study of Rattus norvegicus with 12 samples.

Results

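The comparison asks what differs from the unstressed rat hippocampus after chronic stress followed by fluoxetine. It rests on 6 of the 12 libraries of the series, 3 labelled CUMS-Flx and 3 labelled Ctrl-Sal, chosen by their titles, and on the 15253 of 28959 rows of the expression table whose mean over the 12 libraries reached 0.5 FPKM. FPKM is a read count scaled by the length of the gene and by the total reads of the library. All rats were Sprague Dawley, with a stated age of 6 to 7 weeks, and RNA came from the hippocampus. CUMS-Flx rats were exposed for 5 weeks to CUMS, a procedure of chronic, unpredictable and mild stressors, and were given fluoxetine in the last 7 days. Its dose is stated as 10 mg/kg/d per sample, while the text of the series has 7 mg/kg/d. Ctrl-Sal rats were not stressed and were given saline. A group of 3 libraries from stressed rats given saline (CUMS-Sal) is set beside these groups where it bears on a row. Libraries from stressed rats given albiflorin (CUMS-Alb) entered the estimate of the spread and are set beside some rows. Nothing in the labels ties each library to a rat of its own. The p-values therefore reflect how much these libraries vary, and that variation may be technical in part.

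Fluoxetine blocks the serotonin transporter and so raises serotonin outside the cell, and it is used as an antidepressant. The hippocampus receives serotonin fibres from the raphe nuclei, carries many glucocorticoid receptors and is a region where chronic stress and antidepressants have long been studied in rodents. The unstressed group given saline is the baseline for both stress and drug, so this comparison holds the joint effect of both and does not separate them. In bulk tissue, fewer cells of a type and less RNA per cell cannot be told apart.

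The table gives Ensembl rat gene IDs without gene names, and 0 of them could be matched to a symbol in the reference used here. The genes below are therefore described by ID, length, level and change, their functions are not stated, and the tissue label was not checked against marker genes. The 28 lists of pathway and cell type genes, with 478 symbols, matched 0 rows.

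The libraries held 14735953 to 18109623 reads. Ctrl-Sal replicate 2 lay apart from the others on the first principal component of the log2 values, at -44.7. Ctrl-Sal replicates 1 and 3 lay at -12.2 and -7.85, CUMS-Flx replicate 1 between them at -9.94, and CUMS-Flx replicates 2 and 3 at 3.50 and 7.22. Replicates varied more in Ctrl-Sal, with a median SD of 0.15 log2 units, than in CUMS-Flx, with one of 0.11. Results that rest on Ctrl-Sal replicate 2 or CUMS-Flx replicate 1 are given below with and without them.

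After stress and fluoxetine 8 genes differed from unstressed rats, 5 higher and 3 lower. That was 0.0524% of the 15253 rows tested, 0.0328% higher and 0.0197% lower. The changes were 1.38-fold to 2.32-fold for the higher genes and 1.38-fold to 2.61-fold for the lower ones. The test was limma on log2(FPKM + 0.5). A gene was called where its p, adjusted by Benjamini-Hochberg, was under 0.05, and folds are of FPKM + 0.5. All 8 called rows carry an Ensembl ID. As they were chosen by their p in this comparison, the separation of their libraries given below goes with that choice and is no added support. Over all rows tested the 2 groups did not overlap in 2696 (17.7%). The plot of p against log2 difference shows them above a broad cloud that leans to the higher side on the scale of the deposited FPKM.

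**Figure D1:**
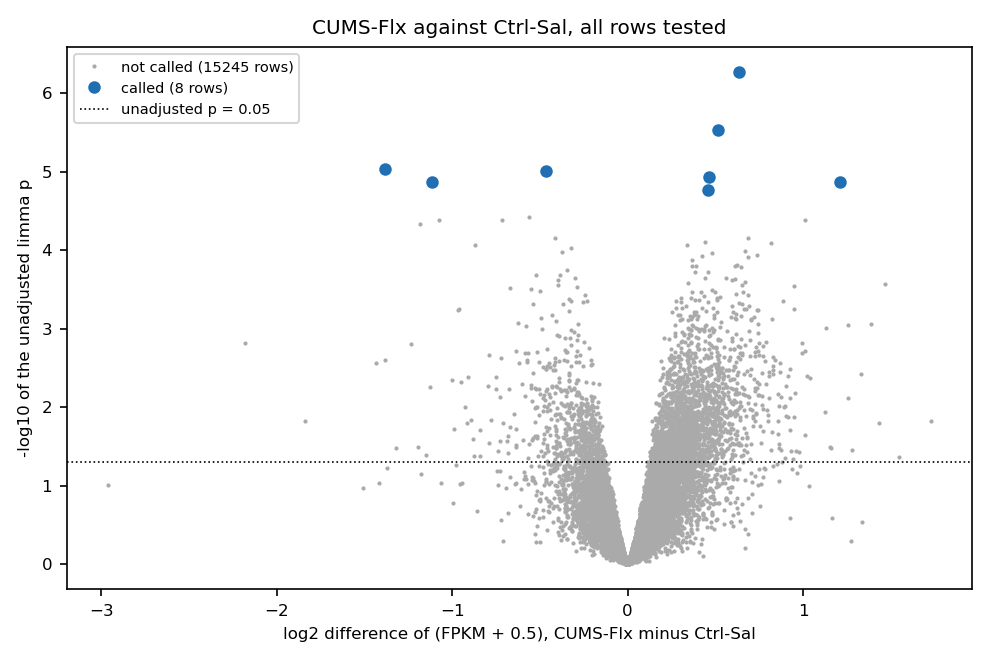
Each point is 1 of the 15253 rows tested, by its log2 difference of (FPKM + 0.5) in CUMS-Flx minus Ctrl-Sal (horizontal) and the -log10 of its unadjusted limma p (vertical). The 8 called rows (blue) have log2 differences of -1.38 to 1.21. Of the rows over the dotted line 2050 lie on the higher and 616 on the lower side. All 4 rescalings named in the text reduce this lean (1455 and 1106 with each library shifted to a median deviation of 0). That shift centres each library, so the smaller lean follows largely from the scaling itself.

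ENSRNOG00000057823, a gene of 2545 bp, was the row of smallest p. It stood at 24.5, 26.0 and 22.7 FPKM in CUMS-Flx replicates 1, 2 and 3 and at 14.9, 15.97 and 15.9 in Ctrl-Sal. The lowest CUMS-Flx library lay well above the highest Ctrl-Sal library. The means were 24.4 ± 1.64 and 15.6 ± 0.616 FPKM (SD, n = 3), a 1.55-fold increase (log2 difference 0.63, SE 0.07, limma adjusted p = 0.00816). Counting of reads alone gives an SD of 0.628 FPKM in Ctrl-Sal, just above the SD there, and 0.745 in CUMS-Flx, below it.

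ENSRNOG00000001044, of 889 bp, was at 28.7, 26.0 and 25.7 FPKM in CUMS-Flx and at 18.0, 17.9 and 19.7 in Ctrl-Sal. The groups did not overlap, and the 3 CUMS-Flx libraries were all higher. The means of 26.8 ± 1.66 and 18.6 ± 1.03 FPKM (SD, n = 3) gave a 1.43-fold increase (log2 difference 0.52, SE 0.06, limma adjusted p = 0.0227). Counting alone gives 1.16 FPKM in Ctrl-Sal, above the SD there, and 1.32 in CUMS-Flx, below it. In CUMS-Sal and CUMS-Alb, which entered the spread, the SDs of 0.703 and 0.247 FPKM lay below the 1.26 and 1.25 of counting alone.

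ENSRNOG00000058484, of 1049 bp, was at 55.2, 49.2 and 53.1 FPKM in CUMS-Flx and at 37.2, 37.6 and 39.0 in Ctrl-Sal. Again the groups were apart. The Ctrl-Sal libraries lay within a narrow range, with an SD below the 1.53 FPKM that counting of reads alone gives. In CUMS-Flx counting alone gives 1.70 FPKM, which is below the SD there. Its means were 52.5 ± 3.01 and 38.0 ± 0.943 FPKM (SD, n = 3), a 1.38-fold increase (log2 difference 0.46, SE 0.07, limma adjusted p = 0.0298).

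ENSRNOG00000014215, of 2508 bp, was at 56.6, 61.5 and 54.9 FPKM in CUMS-Flx and at 38.7, 43.2 and 43.5 in Ctrl-Sal. All 3 CUMS-Flx libraries were higher than all Ctrl-Sal libraries. The means were 57.7 ± 3.41 and 41.8 ± 2.66 FPKM (SD, n = 3), a 1.38-fold increase (log2 difference 0.46, SE 0.07, limma adjusted p = 0.0324).

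ENSRNOG00000037886, of 846 bp, had the lowest level of the higher genes and the largest fold among them. It was at 3.23, 3.60 and 4.18 FPKM in CUMS-Flx, from 47, 51 and 64 reads, and at 1.20, 0.906 and 1.91 in Ctrl-Sal, from 15, 12 and 26 reads. The groups did not overlap. The means of 3.67 ± 0.476 and 1.34 ± 0.513 FPKM (SD, n = 3) gave a 2.32-fold increase (log2 difference 1.21, SE 0.17, limma adjusted p = 0.0298).

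Among the lower genes ENSRNOG00000055068, of 768 bp, had the largest fold. It was at 12.3, 10.9 and 7.41 FPKM in CUMS-Flx and at 24.0, 36.4 and 22.1 in Ctrl-Sal. The groups were apart, and Ctrl-Sal replicate 2 stood high within its own group. The means were 10.2 ± 2.51 and 27.5 ± 7.78 FPKM (SD, n = 3), a 2.61-fold decrease (log2 difference -1.38, SE 0.19, limma adjusted p = 0.0298). Without Ctrl-Sal replicate 2 the log2 difference was -1.17 (limma adjusted p = 0.0518).

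ENSRNOG00000032297, of 1849 bp, was at 54.2, 46.4 and 47.0 FPKM in CUMS-Flx and at 65.9, 71.8 and 66.5 in Ctrl-Sal. The highest CUMS-Flx library, replicate 1, lay below the lowest Ctrl-Sal library. The means were 49.2 ± 4.34 and 68.1 ± 3.23 FPKM (SD, n = 3), a 1.38-fold decrease (log2 difference -0.47, SE 0.07, limma adjusted p = 0.0298).

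ENSRNOG00000056350, the shortest of the 8 at 139 bp, rests on few reads. There were 5, 5 and 6 reads in CUMS-Flx and 10, 11 and 14 in Ctrl-Sal, which gave 2.09, 2.15 and 2.38 FPKM against 4.88, 5.06 and 6.24. The groups did not overlap, and the means were 2.21 ± 0.154 and 5.39 ± 0.741 FPKM (SD, n = 3; log2 difference -1.12, SE 0.16, limma adjusted p = 0.0298), a 2.17-fold decrease. At these reads counting alone gives an SD of 0.957 FPKM in CUMS-Flx and 1.58 in Ctrl-Sal. The SDs between libraries lay below that, and limma-voom on the recovered reads did not call the gene (adjusted p = 0.105).

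**Figure D2:**
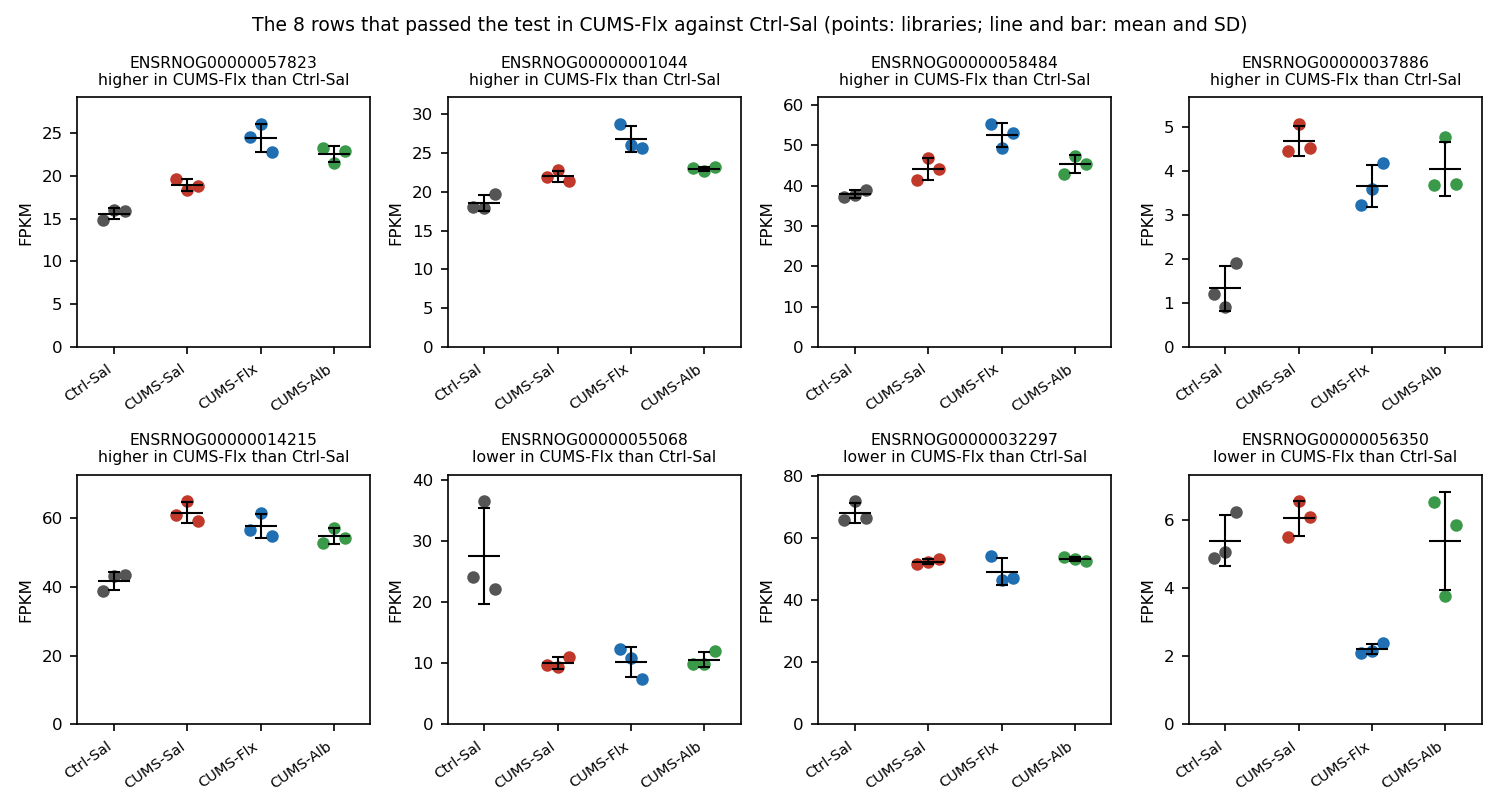
Each panel shows 1 of the 8 called rows, with FPKM on the vertical axis from 0 and the 4 groups on the horizontal axis. Points are single libraries, and the line and bar are the mean and SD of 3. In every panel the CUMS-Flx libraries (blue) lie all above or all below the Ctrl-Sal libraries (grey), and in the panel of ENSRNOG00000056350 the CUMS-Sal libraries (red) lie near Ctrl-Sal. The separation from Ctrl-Sal goes with the choice of these rows by their p, and 17.7% of all rows tested did not overlap.

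Set beside stressed rats given saline, the 8 genes showed different orders of levels. These were read after their values were seen, and the comparisons of CUMS-Flx and CUMS-Sal with Ctrl-Sal share the Ctrl-Sal libraries. The 8 genes were also chosen by the same CUMS-Flx libraries that are compared with CUMS-Sal here and below. Their differences from CUMS-Sal are therefore descriptions of chosen rows and no separate support. The 95% intervals of these differences are unadjusted for the number of rows. In 3 genes CUMS-Flx lay beyond CUMS-Sal. For ENSRNOG00000057823 CUMS-Sal was at 18.9 ± 0.671 FPKM, and its log2 difference from Ctrl-Sal was 0.27 (limma adjusted p = 0.0360), against the 0.63 of CUMS-Flx. ENSRNOG00000001044 had 22.0 ± 0.703 FPKM in CUMS-Sal (log2 difference from Ctrl-Sal 0.24, limma adjusted p = 0.0410), and ENSRNOG00000058484 had 44.1 ± 2.66 (log2 difference 0.21, limma adjusted p = 0.0582). The direct difference between CUMS-Flx and CUMS-Sal was 0.36 for ENSRNOG00000057823 (95% interval 0.21 to 0.51), 0.28 for ENSRNOG00000001044 (0.14 to 0.42) and 0.25 for ENSRNOG00000058484 (0.11 to 0.39). The CUMS-Flx libraries lay above every CUMS-Sal library in all 3 genes, but none passed the test between these groups (limma adjusted p = 0.298, 0.316 and 0.336), nor under any alternative tried. The CUMS-Sal differences from Ctrl-Sal moved with the scaling. For ENSRNOG00000057823 the log2 difference was 0.16 after quantile normalization and 0.15 with the length trend removed, and it was called under 8 of 24 alternatives (limma adjusted p 0.0271 to 0.207). For ENSRNOG00000001044 it was 0.12 after quantile normalization, and it was called under 6 of 24 (0.0195 to 0.257). For ENSRNOG00000058484 it was called under 1 of 24 (0.0452 to 0.356). In CUMS-Alb, the other group of stressed rats given a drug, ENSRNOG00000057823 was at 22.5 ± 0.939 FPKM. Its CUMS-Alb libraries lay above every CUMS-Sal library and overlapped those of CUMS-Flx. ENSRNOG00000001044, at 22.9 ± 0.247 in CUMS-Alb, and ENSRNOG00000058484, at 45.3 ± 2.24, lay below every CUMS-Flx library there.

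In 3 other genes CUMS-Flx and CUMS-Sal differed little in their means and both lay away from Ctrl-Sal. ENSRNOG00000055068 was at 10.0 ± 0.927 FPKM in CUMS-Sal and 10.2 ± 2.51 in CUMS-Flx, and the log2 difference between them was -0.0048 (95% interval -0.42 to 0.41). ENSRNOG00000032297 was at 52.4 ± 0.786 FPKM in CUMS-Sal, with a log2 difference of -0.09 (-0.23 to 0.05) between CUMS-Flx and CUMS-Sal. ENSRNOG00000014215 was at 61.6 ± 2.94 FPKM in CUMS-Sal, a log2 difference of -0.09 (-0.24 to 0.05). In ENSRNOG00000037886 CUMS-Flx lay between Ctrl-Sal and CUMS-Sal. It was at 4.45, 5.07 and 4.53 FPKM in CUMS-Sal (4.69 ± 0.336), above every CUMS-Flx library, at a log2 difference of -0.32 (-0.70 to 0.06). None of these 4 passed the test between CUMS-Flx and CUMS-Sal (limma adjusted p = 0.995, 0.652, 0.660 and 0.565), and the intervals for ENSRNOG00000055068 and ENSRNOG00000037886 are wide. All 4 were called between CUMS-Sal and Ctrl-Sal, at limma adjusted p of 0.0161, 0.0183, 0.0127 and 0.0127. These calls ended without CUMS-Sal replicate 2 (limma adjusted p = 0.0708, 0.0741, 0.0668 and 0.0668) and in a fit of those groups alone (0.126), and that of ENSRNOG00000032297 also without CUMS-Sal replicate 3 (0.0593). Over the alternatives they reached down to 0.00469, 0.0109, 0.00403 and 0.000523. In CUMS-Alb the 4 genes, in the same order, were at 10.6 ± 1.25, 53.2 ± 0.571, 54.7 ± 2.31 and 4.05 ± 0.622 FPKM. They were also called between CUMS-Alb and Ctrl-Sal (limma adjusted p = 0.0385, 0.0391, 0.0391 and 0.0385), a comparison that uses the same Ctrl-Sal libraries.

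In the last of the 8 genes CUMS-Sal lay near Ctrl-Sal. ENSRNOG00000056350 was at 6.05 ± 0.518 FPKM in CUMS-Sal, near the 5.39 ± 0.741 of Ctrl-Sal (log2 difference 0.16, limma adjusted p = 0.549) and above all CUMS-Flx libraries. The log2 difference between CUMS-Flx and CUMS-Sal was -1.27 (95% interval -1.62 to -0.92, limma adjusted p = 0.0548). It was called under 8 of 23 alternatives, over which the limma adjusted p ran from 0.00221 to 0.455, among them a fit of those groups alone (0.00345), quantile normalization (0.0468) and the fits without Ctrl-Sal replicate 2 (0.0257) and without CUMS-Alb replicates 1 (0.0369) and 2 (0.00221). Its few reads limit this value as they do the one against Ctrl-Sal. In CUMS-Alb ENSRNOG00000056350 was at 6.53, 3.79 and 5.85 FPKM (5.39 ± 1.43), from 14, 9 and 14 reads.

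Over all rows 0 genes were called between CUMS-Flx and CUMS-Sal by limma, where 1523 (9.98%) had an unadjusted p under 0.05, and 0 by limma-voom. A fit of those groups alone called 5, and a pseudocount of 0.1 and 3 other scalings each called 1. Between CUMS-Sal and Ctrl-Sal 1402 (9.19%) were called. The counts of 8 and 1402 rest on the same Ctrl-Sal libraries and are not themselves a test between CUMS-Flx and CUMS-Sal.

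Many rows lay just beyond the threshold. Of the rows not called, 121 had an adjusted p from 0.05 to 0.1, 90 higher and 31 lower in CUMS-Flx, and the first 4 of them stood at an adjusted p of 0.0523. The called row of largest p, ENSRNOG00000014215, stood at 0.0324.

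How large a difference the data could still hold was read from the intervals. The median SE was 0.12 log2 units, and the median half-width of the 95% interval of a row, unadjusted for the number of rows, was 0.25. In 11908 rows (78.1%) that interval lay within 1.5-fold in both directions. In the other 3345 it reached past 1.5-fold in at least 1 direction. These intervals rest on a spread shared by all 4 groups. The median SD was 0.11 log2 units in CUMS-Sal and 0.095 in CUMS-Alb, below the 0.15 of Ctrl-Sal. The intervals may therefore be too narrow for a comparison with Ctrl-Sal.

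Below the threshold the rows leaned to the higher side on the scale of the deposited FPKM, and this lean was smaller under other scalings. The log2 difference was above 0 in 61.1% of rows, with a median of 0.05 over all of them. An unadjusted p under 0.05 was reached by 2666 rows (17.5%), of which 2050 (13.4% of all rows) were higher in CUMS-Flx and 616 (4.04%) lower. The CUMS-Flx and Ctrl-Sal libraries did not overlap in 2696 rows (17.7%), 1819 higher (11.9%) and 877 lower (5.75%). Of the non-overlapping rows 167 higher and 41 lower ones differed by over 1.5-fold, and 13 and 9 by over 2-fold. Without Ctrl-Sal replicate 2, 1677 rows had an unadjusted p under 0.05 and the median of all rows was 0.03, and without CUMS-Flx replicate 1 the values were 3042 and 0.06. They were 1771 and 0.05 without CUMS-Flx replicate 2, and 1619 and 0.04 without CUMS-Flx replicate 3. Leaving out Ctrl-Sal replicate 1 gave 2841 and 0.05, and leaving out Ctrl-Sal replicate 3 gave 3601 and 0.06. The drop was thus not particular to Ctrl-Sal replicate 2. With each library shifted to a median deviation of 0 the difference was above 0 in 49.5% of rows, and 1455 rows were higher and 1106 lower at an unadjusted p under 0.05. The counts were 1354 and 1240 after quantile normalization, 1381 and 1194 with totals taken outside the 9 abundant genes, and 1475 and 1164 with the length trend removed, with 46.5, 48.6 and 48.4% of rows above 0. The median of all rows under these 4 scalings was -0.014 to -0.0023. The shift and the removal of the length trend centre the deviations of each library. Quantile normalization gives every library the same distribution. A median near 0 thus follows largely from these scalings themselves and is no separate result. Only the totals taken outside the abundant genes do not centre the libraries.

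Longer genes leaned further to the higher side than shorter ones. The rows tested were ordered by length into 5 classes of 3046 to 3055 rows, bounded at 1202, 1807, 2500 and 3624 bp. At an unadjusted p under 0.05, the shortest class had 367 rows higher and 216 lower in CUMS-Flx, the next 3 classes 372 and 153, 371 and 116, and 466 and 84, and the longest class 474 and 47. The number of lower rows fell with each step in length, and the median log2 difference was 0.04 in the shortest class and 0.06 in the longest. Without Ctrl-Sal replicate 2 the shortest class had 229 higher and 184 lower rows and the longest 304 and 35, and without CUMS-Flx replicate 1 they had 379 and 249, and 563 and 37. The classes of length were not read with any other library left out, CUMS-Flx replicate 3 among them. With each library shifted to a median deviation of 0, the shortest class turned to 280 higher and 311 lower rows, while the longest stayed at 325 and 101.

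Single libraries did not share 1 trend with length. In CUMS-Flx replicate 3 the median log2 difference from the Ctrl-Sal mean was 0.04 in the shortest class and 0.11 in the longest. Replicate 2 was at 0.04 and 0.05, and replicate 1 at 0.04 and 0.03. Among the Ctrl-Sal libraries, replicate 1 was at 0.04 and -0.0050, replicate 2 at -0.06 and -0.01 and replicate 3 at 0.02 and 0.03. In the longest class CUMS-Flx replicate 1 was thus about level with Ctrl-Sal replicate 3. With a smooth trend with length removed from each library, the counts were 326 and 289 in the shortest class and 270 and 163 in the longest.

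**Figure D3:**
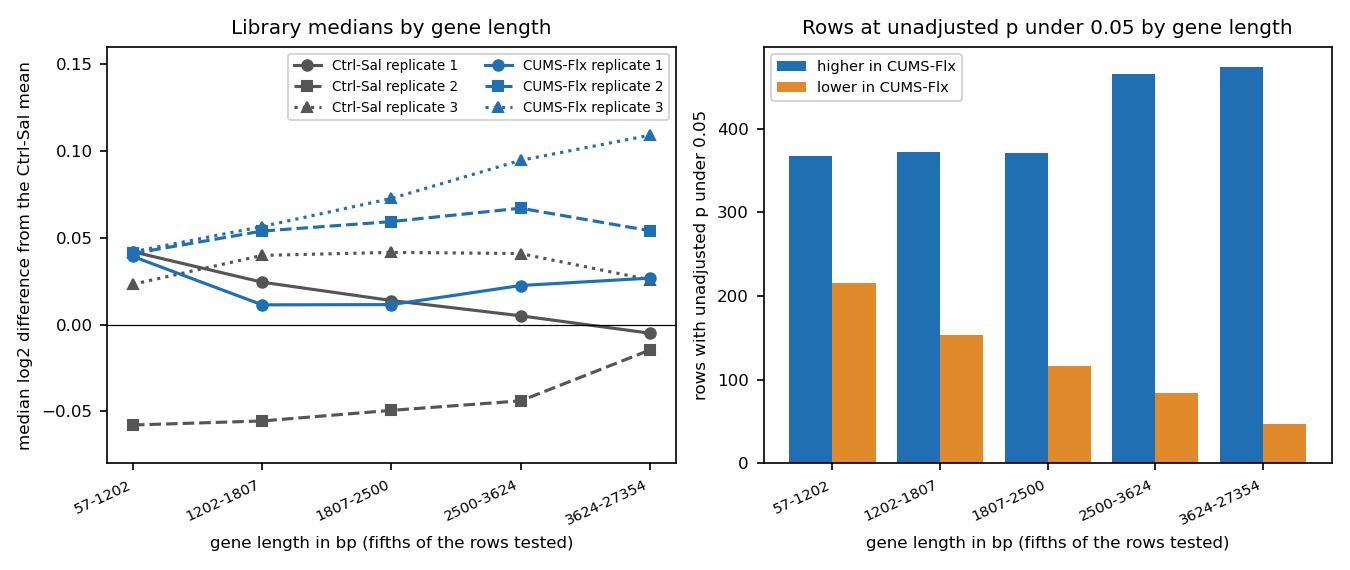
The rows are split into 5 classes by gene length in bp (horizontal axes). The left panel gives each library's median log2 difference from the Ctrl-Sal mean, for 3 Ctrl-Sal (grey) and 3 CUMS-Flx (blue) libraries, and CUMS-Flx replicate 3 reaches 0.11 in the longest class. The right panel counts rows with an unadjusted p under 0.05, where the lower ones go from 216 in the shortest class to 47 in the longest.

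Genes of higher level reached a small p more often. By mean FPKM in 5 classes, an unadjusted p under 0.05 was reached by 247 rows (8.10%) of up to 1.77 FPKM, 420 (13.8%) up to 5.20, 532 (17.4%) up to 11.9, 679 (22.3%) up to 27.6, and 788 (25.8%) above. The median SE fell along these classes from 0.18 to 0.08 log2 units. The median log2 difference was 0.03, 0.06, 0.06, 0.05 and 0.04.

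Of the 1346 tested rows without an Ensembl ID, 0 were called by limma, against 8 of the 13907 with one. An unadjusted p under 0.05 was reached by 144 of them (10.7%), 94 higher and 50 lower, against 2522 (18.1%) of the rows with an Ensembl ID. The rows without an Ensembl ID had a median level of 1.35 FPKM and the others one of 9.36. The share of the former lay between those of the 2 lowest classes of level, so level and annotation were not set apart here.

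The most abundant genes stood lower in CUMS-Flx than in Ctrl-Sal on average, but the groups overlapped. The 9 genes that each took over 1% of all reads, 681 to 1830 bp long, held 18.8, 15.5 and 15.3% of the reads in CUMS-Flx replicates 1, 2 and 3 and 20.4, 22.0 and 17.4% in Ctrl-Sal. CUMS-Flx replicate 1 lay above Ctrl-Sal replicate 3, and the other CUMS-Flx libraries below all Ctrl-Sal libraries. The means were 16.5 ± 1.99 and 19.95 ± 2.32% (SD, n = 3), with an exact two-sided permutation p of 0.2, where 3 against 3 libraries cannot go below 0.1. With 1 library left out at a time the exact permutation p was 0.2 or 0.4, where 0.2 is the smallest that 2 against 3 libraries allow. In CUMS-Sal the share was 14.9 ± 0.157%.

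None of the 9 abundant genes was called between CUMS-Flx and Ctrl-Sal by limma, and their adjusted p ran from 0.108 to 0.462. Their log2 differences were -0.39 to -0.15 with a median of -0.24, against 0.05 over all rows. Of the 9, 6 had an unadjusted p under 0.05. Over all rows tested the share was 17.5% (4.04% lower), and in the class of highest level it was 25.8%. The 9 genes were read from the same libraries, so these are not 6 separate results. The most abundant of them was at 32891, 27560 and 27061 FPKM in CUMS-Flx and at 36115.5, 42959 and 31708 in Ctrl-Sal, where the groups overlapped at CUMS-Flx replicate 1. The libraries did not overlap in 1 of the 9 genes, against 17.7% of all rows tested (5.75% lower). Without Ctrl-Sal replicate 2 the differences were -0.34 to -0.08, and without CUMS-Flx replicate 1 they were -0.47 to -0.24. All 9 were below 0 in these fits, and under quantile normalization they ran from -0.15 to 0.03.

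**Figure D4:**
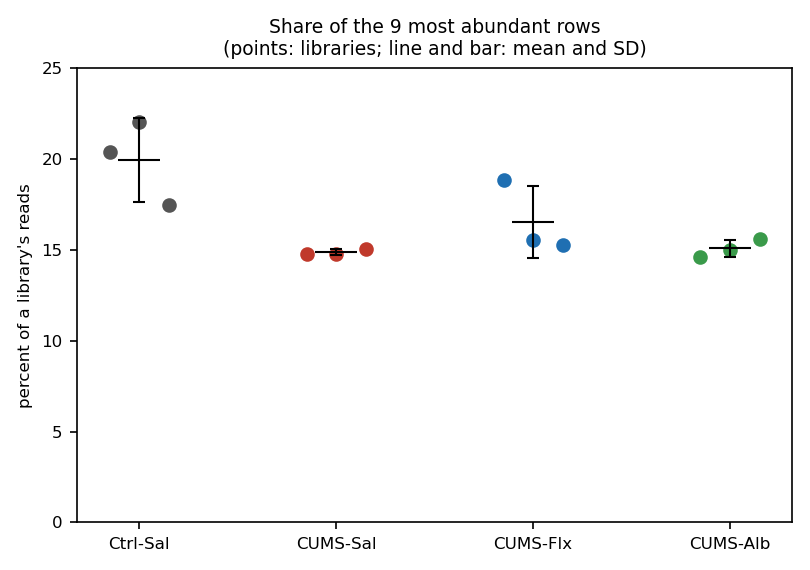
The vertical axis gives the percent of a library's reads held by the 9 genes over 1% of all reads, from 0, for the 4 groups on the horizontal axis. Points are single libraries, and the line and bar are the mean and SD of 3. CUMS-Flx replicate 1, at 18.8%, lies within the Ctrl-Sal range of 17.4 to 22.0%, and CUMS-Flx replicates 2 and 3 lie below it.

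How many genes were called depended on single libraries. Without Ctrl-Sal replicate 3 the 8 calls became 544, 488 higher and 56 lower, and all 8 were called again. Without Ctrl-Sal replicate 2 only ENSRNOG00000057823 was called, and without Ctrl-Sal replicate 1 there were 14 calls with 5 of the 8 among them. Without CUMS-Flx replicates 1, 2 and 3 there were 5, 2 and 1 calls. Libraries outside the comparison changed the count through the shared spread: it was 3, 1 and 1 without CUMS-Sal replicates 1, 2 and 3, and 9, 3 and 1 without CUMS-Alb replicates 1, 2 and 3. A limma fit of these 6 libraries alone called 0 genes, with 1718 rows at an unadjusted p under 0.05 and a smallest adjusted p of 0.316.

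Of the 8, ENSRNOG00000057823 was called without each of the 12 libraries in turn. The other 7 lost the call in 7 to 11 of these 12 fits. The direction of all 8 was the same under the 23 or 24 alternatives in which each was tested. Most of these could not reverse it, because the groups did not overlap. On recovered reads limma-voom called 54 genes, 39 higher and 15 lower, among them 7 of the 8. The balance of higher and lower calls moved with the scaling. It was 3 and 7 with each library shifted to a median deviation of 0, 10 and 14 after quantile normalization, 3 and 9 with totals taken outside the 9 abundant genes, and 3 and 6 with the length trend removed. Under these scalings 6 or 7 of the 8 were called again.

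**Figure D5:**
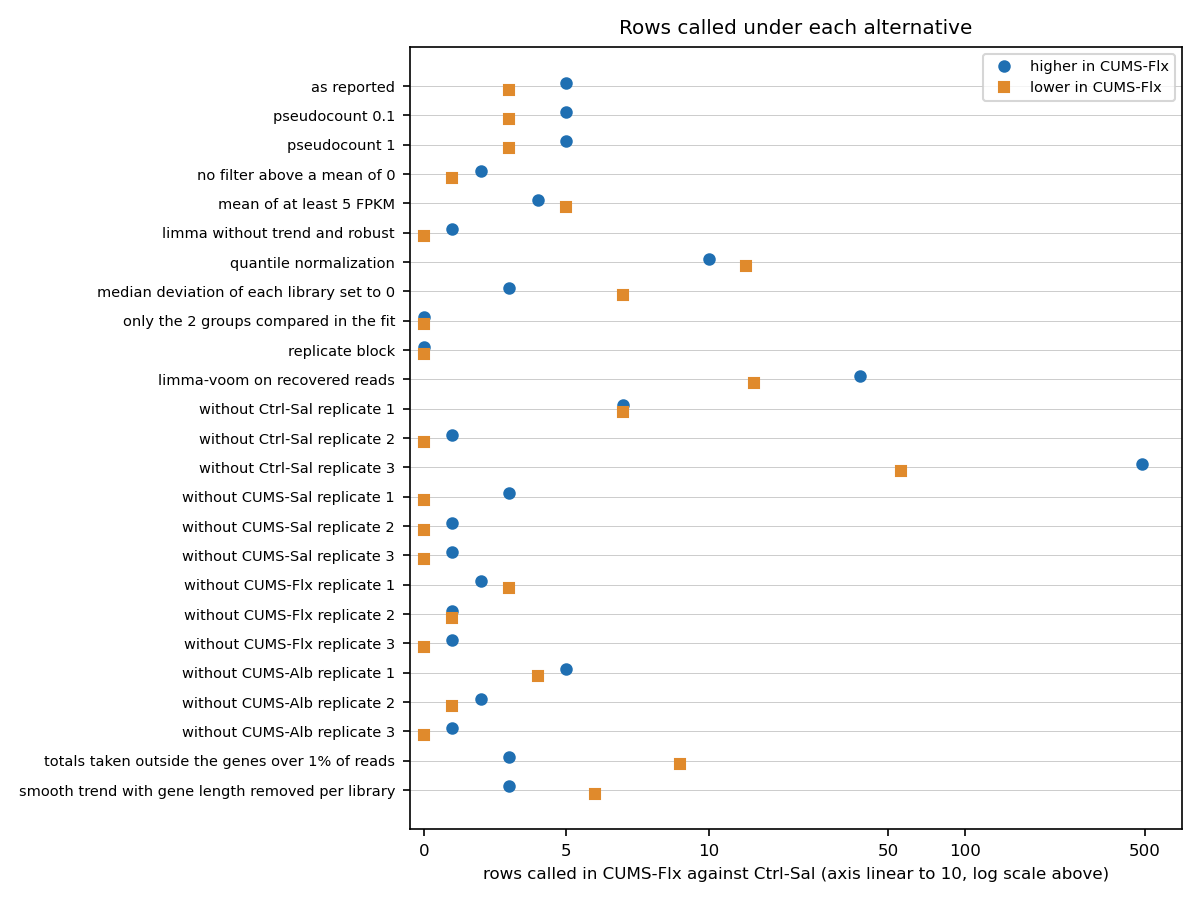
Each line is 1 way of processing, from the values as reported (top) to the alternatives, and the horizontal axis counts rows called in CUMS-Flx against Ctrl-Sal, linear to 10 and on a log scale above. Blue circles are rows higher in CUMS-Flx and orange squares rows lower, at 5 and 3 as reported, with most alternatives below 20 and 488 and 56 without Ctrl-Sal replicate 3.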

How the data were processed

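RNA sequencing of 12 hippocampus libraries was deposited as 1 table. The authors deposited FPKM values, with a unit read from the values since the header names none. The rat build rn6 and the tool TopHat2 are named, per the submitters' processing notes. Its version, the counter, the annotation and strand handling are unstated in the labels. Columns were assigned by their names, which are the sample titles.

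Reads and gene lengths were recovered by finding, for each row, the smallest length in bp that made the reads of every library whole (within 0.0002 of a read) at 1 total per library. This succeeded for 22737 of 22737 rows above 0 (100%). A sparse row can be understated by a common factor. Replicate pairs differed by more than counting noise, so none was counted as a copy.

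Limma 3.58.1 (R 4.3.3, trend and robust) was fitted to log2(FPKM + 0.5) of the 15253 rows whose mean reached 0.5 FPKM, with all 12 libraries and 1 coefficient per group. This scale understates the change of low genes. P-values were adjusted by Benjamini-Hochberg over all rows. Limma-voom used rows with a mean of at least 10 reads. The recovery of reads and the limma fit were tested on simulated reads. For the limma fit these had the same setting of spread in every gene and library. They held no library that lay apart, no more variable group and no trend with length. That test therefore cannot tell how the calls behave where such features are present. Figures used matplotlib 3.10.9.

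Named rows were the 2 higher and 2 lower IDs of smallest p. ENSRNOG00000058484, ENSRNOG00000014215, ENSRNOG00000037886 and ENSRNOG00000056350 fall outside this rule and were named after their values were seen, so that every called row is given. The comparison, lists and rules were chosen with earlier results of these data known. Alternatives are in the closing section, and the scalings outside the abundant genes and by length were chosen after seeing the data. Rows that share reads with similar or overlapping genes could not be set apart.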

Additional observations from a re-analysis of the deposited data

How the results depend on the processing

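The direction of the 8 called genes held under every alternative in which each was tested, and their calls did not. The groups did not overlap in these genes. Leaving out a library or changing the pseudocount, the filter or the variance settings could therefore not reverse the direction. Pseudocounts of 0.1 and 1 gave 5 genes higher and 3 lower, as reported. The counts of higher and lower genes were 2 and 1 with no filter above a mean of 0, 1 and 0 with limma without trend and robust settings, and 4 and 5 from a mean of 5 FPKM. They were 10 and 14 after quantile normalization, 3 and 7 with each library shifted to a median deviation of 0, 3 and 9 with totals taken outside the abundant genes, 3 and 6 with the length trend removed, 39 and 15 by limma-voom, and 0 and 0 with only the compared groups in the fit. Leaving out 1 library gave 1 to 488 higher and 0 to 56 lower genes. Between CUMS-Flx and CUMS-Sal the count of 0 became 1 with a pseudocount of 0.1, after quantile normalization, with deviations set to 0 and with totals taken outside the abundant genes, 5 with only these groups in the fit, and 0 to 2 without 1 library. Taking genes over 0.5% of reads chose the same 9 abundant genes, and their mean share in CUMS-Flx minus Ctrl-Sal, -3.41 percentage points, ran from -4.67 to -2.38 without 1 library. The cause of these shifts was not tested.

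With the replicate number as a block, 0 genes were higher and 0 lower, against 5 and 3 (smallest limma adjusted p = 0.0752, with 2457 rows at an unadjusted p under 0.05). Libraries of CUMS-Flx and Ctrl-Sal with the same number had deviations that correlated at -0.16 to 0.09. Of the 6 libraries, 0 correlated best with their own number. With 3 libraries a group this is too few to tell whether libraries of the same number belong together, and the labels give only the number. Over all alternatives the adjusted p ran from 0.00306 to 0.398 for ENSRNOG00000057823, and its highest value for the other 7 genes was 0.316 to 0.407. Genes of few reads, such as ENSRNOG00000056350 with 5 to 6 reads per CUMS-Flx library, are limited by depth.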
